A study of Arabidopsis thaliana with 4 samples.

Results

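Mitochondria keep a small genome that encodes core parts of the respiratory chain, and its cytochrome and oxidase genes are described here in Arabidopsis thaliana plants carrying an RNA interference (RNAi) construct against myosin XI-K, a motor protein that moves along actin. The genes are those of the mitochondrial genome whose symbols begin with cox, cob or ccm and that have a probe set listed to 1 gene. There were 6 of them, each with 1 probe set, out of 16 mitochondrion-encoded genes and 13355 genes of any genome with such a probe set. They are cox1, cox2, ccmB, ccmFC, ccmFN1 and ccmFN2. The reference annotation holds 9 genes of the mitochondrial genome with these symbols, so 3 had no probe set of their own.

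The cox genes encode subunits of cytochrome c oxidase, the terminal enzyme of the respiratory chain, which passes electrons to oxygen. The cob gene encodes the cytochrome b of the cytochrome bc1 complex, which passes electrons to cytochrome c. The ccm genes encode parts of the machinery that joins heme to c-type cytochromes. In plants the remaining subunits of these complexes are nuclear genes, whose products are imported, so each complex draws on both genomes. Mitochondrial transcripts of plants are mostly not polyadenylated, and a poly(A) tail marks them for decay.

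Total RNA was taken from equal parts of rosette leaves, stem (cauline) leaves and flowers and hybridised to 1-colour Affymetrix arrays, with 1 array per group of plants. RNAi groups 1, 2 and 3 carried an inverted repeat built from part of the myosin XI-K coding sequence, and the control group expressed the bacterial GUS reporter constitutively. The labels give no plant age, line or number of plants. The columns of RNAi group 1 and of the GUS control held identical values in all 22810 rows, so they were counted as 1 sample, called the shared array here, and the labels do not tell which of these plants it measured. Every comparison below sets RNAi group 2 and RNAi group 3 (n = 2) against that array (n = 1), and no difference can be assigned to silencing.

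The arrays had been brought to nearly the same trimmed mean signal by the authors, with medians from 156.1 to 170.25. Between 24.9% and 27.6% of signals lay under 32, a level treated here as dim. Of the 15922 probe sets past a filter on dim signals, 5 were called higher and 0 lower at a limma adjusted p under 0.05. These calls depend on the setting, with 0 calls under quantile normalisation, the floor of 32, the offset of 16, no filter, robust eBayes or all 4 columns, and 13 without the intensity trend. The genes RCA and LHCB4.1 had signals from 14452.3 to 22392.2 on the 3 arrays. RCA (rubisco activase) and LHCB4.1 (a light-harvesting protein) are defining genes of green tissue. The values below are linear signals or differences of log2 signals, and no level of a gene is set against that of another, since probe sets differ in brightness. In RNA of whole organs, fewer cells of a type and less RNA per cell cannot be told apart.

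The 6 genes all had higher signals in RNAi group 2 and in RNAi group 3 than on the shared array, and 0 of the 6 passed the test (limma with Benjamini-Hochberg adjustment over all probe sets). The share of all probe sets called higher was 0.0314%. All 6 had passed the filter on dim signals, which takes the mean log2 signal over the 3 arrays (threshold 5.307). The shared array value of ccmFN2, at 5.19, was under that threshold, so this gene passed through its RNAi signals. The median log2 difference of the 6 genes was 0.56 (0.54 in RNAi group 2 and 0.34 in RNAi group 3), against 0.04 over all 15922 probe sets. Single genes ranged from 0.20 to 1.43. Among all tested probe sets 30.2% exceeded the shared array in both RNAi groups and 23.3% were below it in both, or 23.6% and 29.2% with each array centred on its median, and the 6 genes stayed higher in both with that centring (median 0.48) and with quantile normalisation (median 0.47). The 6 genes come from 1 genome on the same 3 arrays, and both differences of a gene use the same lone array, so they are not independent observations.

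cox2 encodes the subunit of cytochrome c oxidase that receives electrons from cytochrome c, and it had the largest difference of the 6. Its signal was 408.8 in RNAi group 2 and 211.5 in RNAi group 3, against 109.0 on the shared array. Both RNAi arrays lay above the shared array, RNAi group 2 by 3.75-fold and RNAi group 3 by 1.94-fold. On the log2 scale the RNAi arrays averaged 8.20 ± 0.67 (SD, n = 2), against 6.77 on the shared array (n = 1). The log2 difference was 1.43 (SE 0.58, 95% limma interval 0.10 to 2.77), with a limma p of 0.0383 before adjustment and an adjusted p of 1.0. At that unadjusted threshold 0.923% of all probe sets were higher. The unadjusted limma p was 0.0521 with quantile normalisation and 0.067 without a filter, with an adjusted p of 1.0 in both. The order of the levels was RNAi group 2, RNAi group 3 and the shared array, and each step of about 2-fold rests on single arrays.

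cox1 encodes the catalytic subunit, which holds the site where oxygen is reduced. Its signal was 521.2 in RNAi group 2 and 250.3 in RNAi group 3, against 213.7 on the shared array. RNAi group 2 stood apart, at 2.44-fold the shared array, while RNAi group 3 was at 1.17-fold. The RNAi arrays averaged 8.50 ± 0.75 in log2 signal (SD, n = 2), against 7.74 on the shared array, a log2 difference of 0.76 (SE 0.59, interval -0.59 to 2.11, limma adjusted p = 1.0). Without RNAi group 2 the log2 difference of cox1 was 0.23, and without RNAi group 3 it was 1.29.

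**Figure D1:**
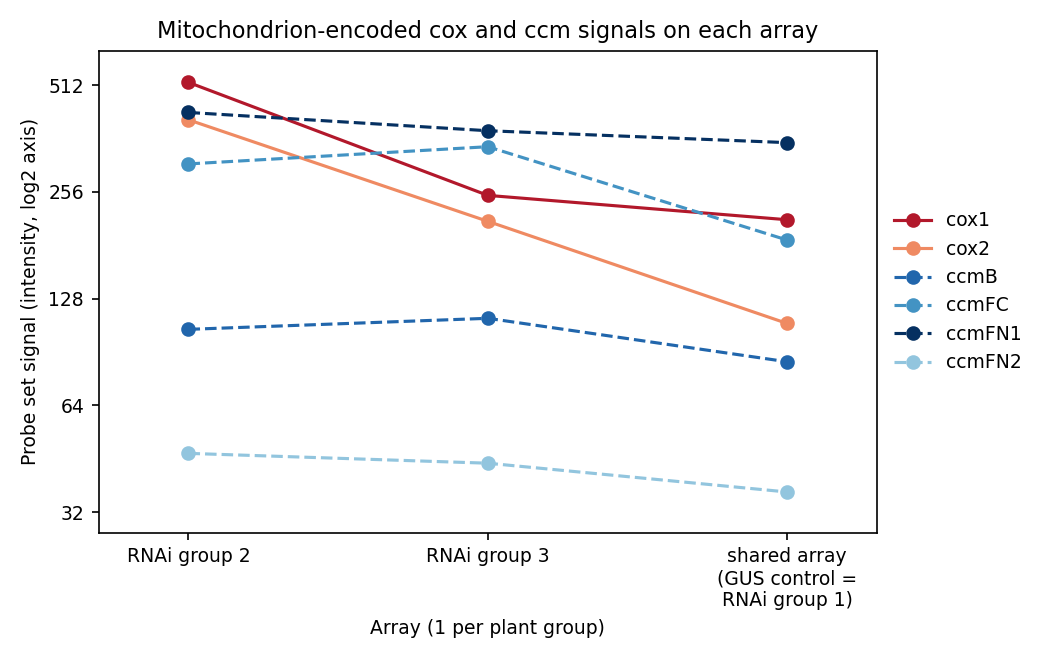
Signal of each gene (vertical axis, intensity on a log2 axis) on the 3 distinct arrays (horizontal axis), with 1 point per array. The lines join the points of a gene and imply no order of the arrays. The cox genes (solid lines) were brightest in RNAi group 2, at 521.2 for cox1 and 408.8 for cox2, while the ccm genes (dashed lines) had like signals in both RNAi groups.

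In RNAi group 2 the ccm genes differed less from the shared array than cox1 and cox2 did. In RNAi group 3 cox1, at a log2 difference of 0.23, lay below ccmFC (0.87), ccmB (0.41) and ccmFN2 (0.27). ccmFC encodes a part of the heme lyase that attaches heme to cytochrome c, and it had 307.0 in RNAi group 2 and 343.3 in RNAi group 3, against 187.3 on the shared array. The RNAi arrays lay close together, at 8.34 ± 0.11 in log2 signal (SD, n = 2), and both lay above the shared array at 7.55. The log2 difference of ccmFC was 0.79 (SE 0.50, interval -0.36 to 1.95, limma adjusted p = 1.0). Its probe set is of the kind that the array maker marks as shared by more than a single transcript, so the signal may hold more than this gene.

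ccmFN1 and ccmFN2 encode the remaining pieces of the heme lyase, which in Arabidopsis is split over separate genes. ccmFN1 had 428.8 in RNAi group 2 and 380.8 in RNAi group 3, against 352.5 on the shared array. This was the smallest difference of the 6, at 0.20 (SE 0.50, interval -0.95 to 1.34). ccmFN2 had 46.9 and 44.0 in RNAi groups 2 and 3, against 36.5 on the shared array, with a log2 difference of 0.32 (SE 0.75, interval -1.40 to 2.03). All 3 signals of ccmFN2 were just above the dim level.

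ccmB encodes a membrane part of a transporter of the same maturation pathway. It had 104.9 in RNAi group 2 and 112.7 in RNAi group 3, against 85.0 on the shared array. The RNAi arrays averaged 6.76 ± 0.07 in log2 signal (SD, n = 2), against 6.41 on the shared array. The log2 difference was 0.36 (SE 0.58, interval -0.98 to 1.69). For ccmB and ccmFN2 both RNAi arrays differed more from the shared array than from each other, whereas for ccmFN1 RNAi group 3 lay 0.11 above the shared array in log2 signal and 0.17 below RNAi group 2. For these 3 genes the limma intervals, which borrow the spread of other probe sets of like brightness, all held 0.

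**Figure D2:**
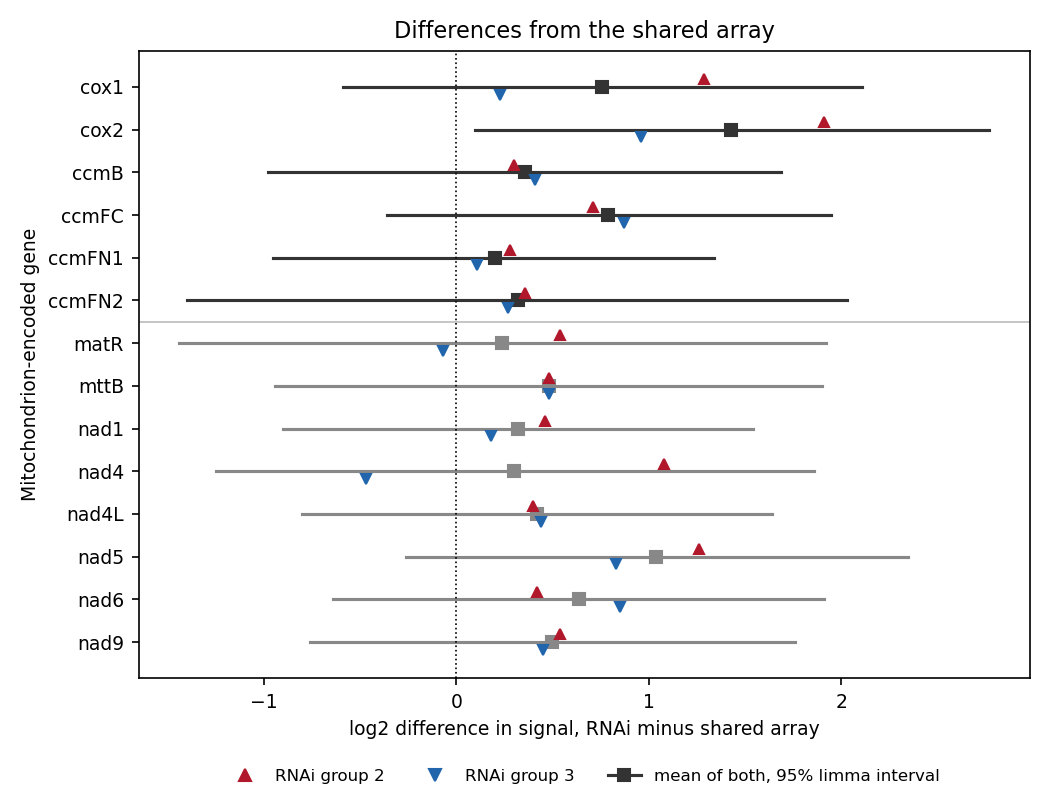
Difference in log2 signal from the shared array (horizontal axis) for each mitochondrion-encoded gene past the filter (rows), with the cox and ccm genes above the grey line. Triangles are RNAi group 2 (pointing up) and RNAi group 3 (pointing down), squares are their mean and bars are 95% limma intervals. The interval of cox2, from 0.10 to 2.77, does not reach 0, while those of the other genes shown do.

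RNAi groups 2 and 3 were also set against each other for the cox and the ccm genes. RNAi group 2 exceeded RNAi group 3 by a log2 difference of 1.06 for cox1 and 0.95 for cox2, which is 2.08-fold and 1.93-fold. For the 4 ccm genes the same difference ran from -0.16 for ccmFC to 0.17 for ccmFN1, with a median of -0.01. Over all probe sets the median was 0.01, and 9.54% were at least 2-fold higher in RNAi group 2 than in RNAi group 3, as cox1 alone of the 6 was. Against the shared array, cox1 and cox2 were at least 2-fold higher in RNAi group 2 (6.29% of all probe sets), and 0 of the 6 in RNAi group 3 (3.81% of all probe sets). With 1 array in each group these are values with no test, and the difference between cox and ccm genes was not tested. In the alternatives of scaling and of dim signals the difference of the cox genes lay between 0.86 and 1.06, and that of the ccm genes between -0.25 and 0.17.

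The other mitochondrion-encoded genes mostly lay above the shared array as well. Of 10 such genes, 8 passed the filter and 0 passed the test in limma. Of the 8, 6 were higher in both RNAi groups, against 30.2% of all tested probe sets. The median log2 difference of the 8 was 0.45. Most are nad genes, for subunits of complex I, the entry point of electrons from NADH. Another is mttB, for a membrane protein related to bacterial protein transporters, and matR encodes a maturase of intron splicing. The probe sets of nad6, mttB and matR and the brighter probe set of nad5 are of the shared kind described for ccmFC. Their signals may hold more than the named gene.

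nad5 had the largest difference of these 8, with 177.2 in RNAi group 2 and 131.9 in RNAi group 3, against 74.1 on the shared array (log2 difference 1.04, SE 0.57). Its other probe set had 74.4 and 134.7, against 45.9, so both probe sets lay above the shared array but disagreed on which RNAi group was brighter. nad6 had 138.7 and 187.5 in RNAi groups 2 and 3, against 103.7 on the shared array, a log2 difference of 0.64 (SE 0.56). nad9, nad4L and mttB differed by 0.50, 0.42 and 0.48, with RNAi groups 2 and 3 close to each other as for the ccm genes.

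nad4 was the exception with the widest gap between RNAi groups. It had 709.3 in RNAi group 2 and 241.4 in RNAi group 3, against 335.1 on the shared array, so RNAi group 2 lay above that array and RNAi group 3 below it. The log2 difference between RNAi groups 2 and 3 was 1.55, larger than for cox1 and cox2. matR also lay on both sides of the shared array, with 65.2 and 42.7 in RNAi groups 2 and 3, against 44.7.

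nad1 has 7 probe sets, whose log2 differences ran from 0.03 to 0.96. Its brightest had 192.1 and 158.0 in RNAi groups 2 and 3, against 139.5 on the shared array. nad2 and nad7 were under the filter, with no signal over 17.2. Values of those genes are at the dim end of the arrays, where nad2 had a log2 difference of 2.87 (SE 1.08) and nad7 of -1.32 (SE 1.19).

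The nuclear subunit genes of the same complexes showed another order than cox1 and cox2, with RNAi group 3 brighter than RNAi group 2. Of 9 listed nuclear subunit genes of cytochrome c oxidase, 7 had a probe set, and 0 of these passed the test in limma. Of those 7, 4 were lower in RNAi group 2 and higher in RNAi group 3 than on the shared array, 2 were lower in both and 1 was higher in both. These counts were 3, 2 and 2 with quantile normalisation, and 5, 2 and 0 with median centring. Their median log2 difference was -0.12 in RNAi group 2 and 0.42 in RNAi group 3. Among all probe sets, 23.2% were lower in RNAi group 2 and higher in RNAi group 3. The widest difference was that of AT5G61310, the 1 gene higher in both RNAi groups without further scaling. It had 421.9 in RNAi group 2 and 617.1 in RNAi group 3, against 398.5 on the shared array (log2 difference 0.36, SE 0.53). AT5G57815 was lower in both, with 737.4 and 945.4 in RNAi groups 2 and 3, against 1023.7 (-0.29, SE 0.51).

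The nuclear subunits of the cytochrome bc1 complex followed the same order. Of 15 listed genes 11 had a probe set, 9 of these were lower in RNAi group 2 and higher in RNAi group 3 than on the shared array, 2 were higher in both, and 0 passed the test in limma. With quantile normalisation 6 of the 11 were lower in RNAi group 2 and higher in RNAi group 3, and 5 were higher in both. Without further scaling their median log2 difference was -0.09 in RNAi group 2 and 0.29 in RNAi group 3. The 2 genes higher in both without further scaling were AT1G51980 and AT2G40765. AT1G51980 had 2781.4 and 3381.3 in RNAi groups 2 and 3, against 2390.3 on the shared array (log2 difference 0.36, SE 0.51). AT2G40765 had 1169.3 and 1411.0, against 1024.5 (0.33, SE 0.51). RNAi group 3 was brighter than RNAi group 2 for all 18 nuclear subunit genes of both complexes with a probe set, without further scaling, with quantile normalisation and with median centring, whereas cox1 and cox2 were brighter in RNAi group 2. Without further scaling the differences of RNAi group 2 minus RNAi group 3 ran from -0.72 to -0.01 for these 18. The share of all probe sets higher in RNAi group 2 than in RNAi group 3 was 50.7%. These values rest on 1 array per group, and the difference between nuclear and mitochondrial genes was not tested.

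**Figure D3:**
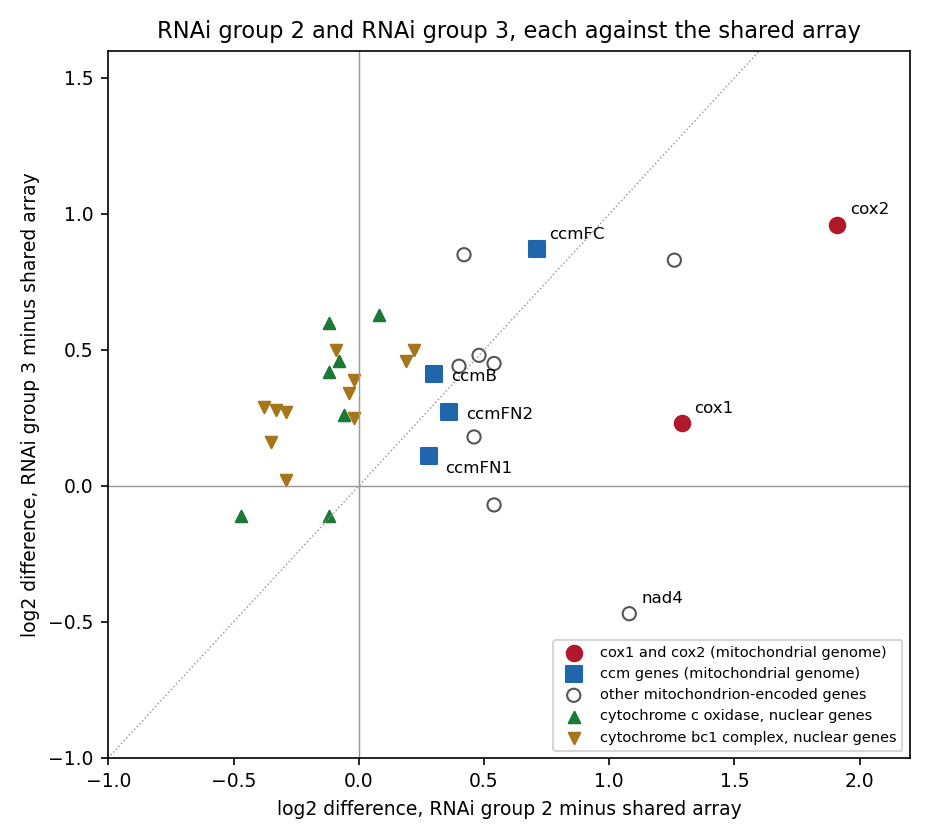
Difference in log2 signal from the shared array in RNAi group 2 (horizontal axis) and RNAi group 3 (vertical axis), with 1 point per gene. The dotted line marks equal differences, and both axes share the shared array. Points of cox1 and cox2 lie below the line, those of the ccm genes near it, and those of the nuclear subunits of cytochrome c oxidase and of the bc1 complex on or above it.

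Nuclear genes of cytochrome c and its maturation were few here. Of 5 listed genes 3 had a probe set, with 0 past the test in limma. All 3 were higher in both RNAi groups, but only 1 was with median centring. Among all tested probe sets that share was 30.2%, or 23.6% with median centring. CCMH, a partner of the heme lyase, had 124.7 in RNAi group 2 and 118.3 in RNAi group 3, against 85.4 on the shared array (log2 difference 0.51, SE 0.57). CYTC-2, a cytochrome c gene, had 3103.7 and 4420.8 in RNAi groups 2 and 3, against 2873.9 (0.37, SE 0.52).

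Of 11 listed assembly factors of cytochrome c oxidase only 2 had a probe set, and neither passed. AT1G02410 had 758.7 and 975.0 in RNAi groups 2 and 3, against 770.3 on the shared array (log2 difference 0.16, SE 0.51). AT1G53030 had 338.2 and 241.7, against 277.6 (0.04, SE 0.52), and its direction turned with quantile normalisation (-0.02) and median centring (-0.03).

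Alternative respiration bypasses the cytochrome pathway. Of 13 listed genes 5 had a probe set, 4 passed the filter and 0 passed the test in limma. NDB3, an alternative NAD(P)H dehydrogenase, had 111.2 and 72.4 in RNAi groups 2 and 3, against 33.8 on the shared array (log2 difference 1.41, SE 0.68). That shared array signal was just above the dim level, and with the offset of 16 the difference was 1.09. NDB4 of the same family was under the filter, with 27.3 and 6.3, against 6.0 (1.13, SE 1.33). No probe set was named here for an alternative oxidase.

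Of 8 listed genes of mitochondrial transcription, replication and RNA decay 3 had a probe set, and 0 passed in limma. AT5G14580 had 71.1 in RNAi group 2 and 146.3 in RNAi group 3, against 35.7 on the shared array (log2 difference 1.51, SE 0.71). Its shared array signal was also just above the dim level, and with the offset of 16 the difference was 1.2. AT5G15700 had 99.0 and 86.1, against 68.4 (0.43, SE 0.61). Over all 6 nuclear lists, 30 genes passed the filter, and their median log2 difference was -0.02 in RNAi group 2 and 0.33 in RNAi group 3. The median over both was 0.17, or 0.09 with median centring.

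**Figure D4:**
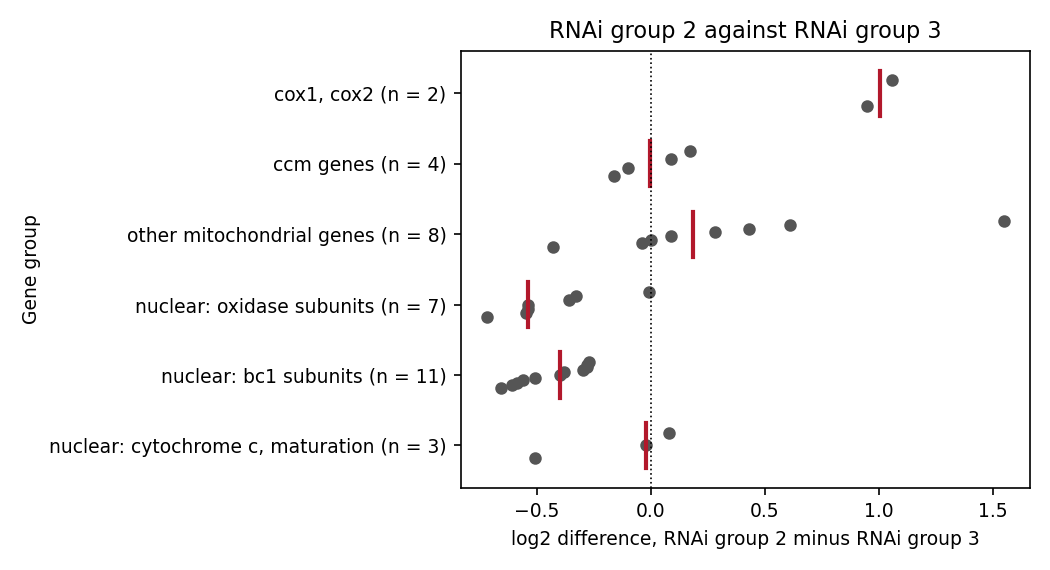
Difference in log2 signal between RNAi group 2 and RNAi group 3 (horizontal axis) for groups of genes (rows), with 1 point per gene and a bar at each median. The cox genes sit at 0.95 and 1.06, the ccm genes between -0.16 and 0.17, and the nuclear subunits of both complexes at or below -0.01.

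The genes of the other organelle genome lay below the shared array mainly in RNAi group 3. The plastid genome had 69 genes with a probe set, and 37 of these were below the shared array in both RNAi groups and 1 above it in both, against 23.3% and 30.2% of all probe sets. The other 31 were above it in RNAi group 2 and below it in RNAi group 3. Their median log2 difference was -0.01 in RNAi group 2 and -0.45 in RNAi group 3. In RNAi group 2, 50 of the 69 were brighter than in RNAi group 3, by a median of 0.35 in log2 signal, the same order of the RNAi groups as for cox1 and cox2. The count below the shared array in both was 34 with quantile normalisation and 45 with median centring. Among them are 6 pet genes, which encode the plastid counterpart of the bc1 complex, and under each of the 3 scalings 4 of these were below the shared array in both RNAi groups and 0 above it in both, with 0 past the test in limma. Their log2 differences ran from -0.61 for petL to -0.02 for petB. The plastid and mitochondrial differences share the same 3 arrays, and the difference between them was not tested.

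Markers of other cell types were looked up on the same arrays. Of 9 pollen genes listed, 5 had a probe set. Of these, 3 had been picked from earlier results of these arrays, so their order is no evidence; they were called higher in limma, each at an adjusted p of 0.0478, and lose that call in the settings with 0 calls given above. The summed signal of the 5 was 2255.4 in RNAi group 2 and 905.3 in RNAi group 3, nearly all of it from those 3. On the shared array the sum was 52.2, most of it from ACT12 at 31.0. The pair not picked that way was under the filter, with MGH3 at 53.2 and 13.6 in RNAi groups 2 and 3, against 5.0 on the shared array, and ACT12 at 46.3 and 11.8, against 31.0. On the shared array all 5 pollen markers with a probe set were under 32, the level treated here as dim. The lowest was AT5G07430 at 1.9. The 2 tapetum markers with a probe set summed to 766.8 and 1253.4 in RNAi groups 2 and 3, against 1173.4 on the shared array, and the 2 leaf markers to 35416.6 and 42549.4, against 41771. None of the 7 floral organ markers had a probe set, and all 3 root markers were under the filter. The part of these cell types in the cox and ccm values was not tested.

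Among 8565 other named genes, those most like cox2 were AT2G47550, AT3G12000, AT3G59480, AT2G31990 and AT4G14900. Likeness was the distance between genes in 2 values, the log2 differences of RNAi groups 2 and 3 from the shared array, so it rests on 3 arrays. These genes lay 0.068, 0.12, 0.17, 0.18 and 0.19 log2 units from cox2. AT4G14900 had 352.4 and 193.9 in RNAi groups 2 and 3, against 105.7 on the shared array. The other members lay farther off, at 0.957 for cox1, 1.2 for ccmFC and 1.69 to 1.83 for ccmFN2, ccmB and ccmFN1.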

How the data were processed

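The deposited intensity of each probe set is on a linear scale and came from 4 samples on 1-colour Affymetrix arrays; per the submitters' processing notes the authors used GCOS and MAS5, of a version not given in the sources used here. After trimming 2% from each end the mean was 500.05 or 500.06 per array, so no further scaling was applied. The number of arrays limits the precision.

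Genes came from the platform annotation. All 23 mitochondrial probe sets were matched by symbol to the TAIR10.1 table of the reference, 5 of them through an older symbol (ccb206 for ccmB, for example). Probe sets listed to several genes (503) were not named, and 64 control probe sets were dropped. No coordinates or sequences were used.

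Probe sets with a mean log2 signal over the 30th percentile (5.307) entered limma 3.58.1 in R 4.3.3 (lmFit, then eBayes with an intensity trend, 2-sided, Benjamini-Hochberg adjusted p under 0.05). RNAi groups 2 and 3 were set against the shared array, whose spread was taken to equal theirs. There was 1 residual degree of freedom, with 7.45 from the prior. Genes under the filter took their SE from a fit of all probe sets. A p-value here reflects only in part the spread between 2 arrays, whose plant groups the labels call independent. With 1 residual degree of freedom against 7.45, it rests mostly on the spread borrowed from other probe sets of like brightness. The fit was run on simulated signals with planted log2 changes, with a pass condition on the median estimate only and none on the calls. The brightest probe set stands for a gene.

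Genes, lists and tests were chosen with earlier results of these data known. The text names all mitochondrion-encoded genes, the members of each nuclear list past the test or else the 2 with the largest difference, and the 5 genes nearest to cox2. Nuclear lists cover cytochrome c oxidase subunits, its assembly, bc1 subunits, cytochrome c and its maturation, alternative respiration, and mitochondrial transcription, replication and RNA decay; marker lists cover pollen, tapetum, floral organs, green leaf and root. Nuclear genes were placed in lists by locus, and the reference gives many of them no symbol. Alternatives were other scalings, a floor of 32, an offset of 16, other filters and variance settings, all 4 columns as labelled, left-out groups and the mean over probe sets.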

Additional observations from a re-analysis of the deposited data

How the results depend on the processing

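No cox or ccm gene and no nuclear respiratory gene passed the adjusted test in any setting in which a test could be run. The log2 difference of cox2 ran from 0.95 with all 4 columns, which count the shared array in both groups, to 1.91, and all 6 genes were positive in every setting. Without RNAi groups 1, 2 and 3 in turn it was 0.96 to 1.91, and the median of the 6 genes 0.34 to 0.56. Leaving out RNAi group 1 changes nothing, since it is the shared array, and without RNAi group 2 or RNAi group 3 there is nothing left to estimate the spread from, so those settings give values with no test. With all 4 columns that median was 0.37. Without further scaling, 30.2% of all tested probe sets were higher in both RNAi groups. The mitochondrion-encoded genes higher in both RNAi groups numbered 12 of 14, and 5 with the 50th percentile filter, which keeps only 6. With RNAi group 2 left out, 12 were higher in RNAi group 3. With RNAi group 3 left out, 14 were higher in RNAi group 2. These last counts use a single RNAi array and are not counts of genes higher in both. Median centring lowered every difference by 0.12 in RNAi group 2 and 0.03 in RNAi group 3. Sign turned for nad4 (-0.47 without RNAi group 2, 1.08 without RNAi group 3) and matR (-0.07 and 0.54). It also turned for AT1G02410 (-0.02 without RNAi group 3). For AT1G53030 it turned with quantile normalisation (-0.02), with median centring (-0.03) and without RNAi group 2 (-0.2, against 0.28 without RNAi group 3). A left-out group leaves the value of the other RNAi array, and for these genes RNAi groups 2 and 3 lay on opposite sides of the shared array. Why the arrays differed was not tested. No paired analysis was possible because only RNAi groups are numbered in the labels.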

Other observations

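Probe sets that list a mitochondrial gene together with a gene of nuclear chromosome 2 cannot be given to either gene, and their values were looked up after the results above were known. The probe set listed to cob and AT2G07727 had 279.9 in RNAi group 2 and 149.0 in RNAi group 3, against 111.8 on the shared array, which is 0.87 on the log2 scale (SE 0.59), with an adjusted p of 1.0 in limma. The probe set listed to cox3 and AT2G07687 had 168.1 and 112.6 in RNAi groups 2 and 3, against 75.7 on the shared array (0.86, SE 0.59). Both were brightest in RNAi group 2, as cox1 and cox2 were, with RNAi group 2 over RNAi group 3 at 1.88-fold for the cob listing and 1.49-fold for the cox3 listing. The probe set listed to atp1, for a subunit of ATP synthase, and AT2G07698 had 751.4 and 500.6, against 349.6. The listing of atp9, for another subunit, with AT2G07671 was brightest in RNAi group 3 instead, at 1443.5 and 1671.2 in RNAi groups 2 and 3, against 1250.2, and that of rps7, a ribosomal protein gene, with AT2G07696 was lower in both, at 31.7 and 29.6, against 34.9. Of all 12 probe sets that list a mitochondrial gene with another gene, 9 were higher in both RNAi groups and 1 lower in both, and 9 were brighter in RNAi group 2 than in RNAi group 3. Among all probe sets past the filter, 30.2% were higher in both, 23.3% lower in both and 50.7% brighter in RNAi group 2 than in RNAi group 3. The 1 lower in both, the rps7 listing, was under the filter.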
